A study of Homo sapiens with 19 samples.

Results

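The 10 heat shock protein genes described here are HSPB1, HSPA1A, HSPA1B, HSPA8, HSPH1, DNAJB1, HSPD1, HSPE1, HSP90AA1 and HSP90AB1. They were taken by symbol, with no measured value in the rule, but with earlier results of these data known. All 10 were found among the 24076 genes of the RNA table and among the 11671 genes with a mean level of 1 FPKM or more. FPKM state how much RNA a gene gave per unit of transcript length and per library. U2OS, an established human osteosarcoma cell line, was grown in DMEM with Tet-approved FBS and transfected with siRNA against EP400 or with a mock siRNA against GFP, and cells were harvested 72 hr later. The 19 samples hold RNA-seq and chromatin immunoprecipitation (ChIP) of RNA polymerase II (Pol II), the Mediator subunit MED26 and the histone variants H3.3 and H2AZ in both conditions. They also hold H3K18ac and H3K4me1 ChIP after mock siRNA, 3 EP400 immunoprecipitations that came as 1 peak list with no siRNA named in their labels, and 4 inputs that were not analysed here. Each antibody and condition had 1 library, as did RNA in each condition, so no difference below has a replicate check or a test, and loss of EP400 and other effects of that siRNA cannot be told apart.

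Heat shock proteins are molecular chaperones that hold, fold or refold other proteins. Their genes are classic targets of the transcription factor HSF1, which binds heat shock elements, inverted repeats of the unit GAA, as a trimer. Small heat shock proteins such as HSPB1 hold unfolding proteins without using ATP, whereas the HSP70, HSP90, HSP110 and chaperonin proteins are large ATP-driven machines served by cochaperones. EP400 is the ATPase of a chromatin remodelling complex that exchanges histones, H2A.Z and H3.3 among them, and the series title asks about its placement of H3.3 at promoters and enhancers.

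The promoters are shown first because the members are grouped further below by the heat shock elements found in them, a grouping made after the RNA values were known. All 10 members matched the RefSeq promoter table (GRCh38.p14), which holds 16 annotated starts for them, and the 250 bases before each start were searched on both strands. Capitals mark each pair of facing units, GAANNTTC or TTCNNGAA, and a run of 13 capitals holds 3 units (GAANNTTCNNGAA or TTCNNGAANNTTC), a pattern that also counts as pairs. HSPB1 (chr7:76302423-76302672, plus strand) and HSPA8 (chr11:123062137-123062386, minus strand) are the members contrasted most below, HSPA1A (chr6:31815293-31815542, plus strand) and HSPA1B (chr6:31827488-31827737, plus strand) show how alike the inducible copies are, and the 104 bases between the divergent starts of HSPD1 and HSPE1 (chr2:197500275-197500378, plus strand) are the promoter those genes share.
HSPB1: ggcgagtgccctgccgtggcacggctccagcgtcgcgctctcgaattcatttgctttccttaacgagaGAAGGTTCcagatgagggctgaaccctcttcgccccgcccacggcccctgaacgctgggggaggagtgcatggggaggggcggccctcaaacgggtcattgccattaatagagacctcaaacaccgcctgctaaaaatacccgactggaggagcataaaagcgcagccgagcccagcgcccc
HSPA8: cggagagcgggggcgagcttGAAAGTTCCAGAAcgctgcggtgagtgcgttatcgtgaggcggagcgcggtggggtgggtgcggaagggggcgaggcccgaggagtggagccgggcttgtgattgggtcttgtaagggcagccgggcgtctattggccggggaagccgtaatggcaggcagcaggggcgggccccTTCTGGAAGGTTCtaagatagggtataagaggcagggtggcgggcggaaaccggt
HSPA1A: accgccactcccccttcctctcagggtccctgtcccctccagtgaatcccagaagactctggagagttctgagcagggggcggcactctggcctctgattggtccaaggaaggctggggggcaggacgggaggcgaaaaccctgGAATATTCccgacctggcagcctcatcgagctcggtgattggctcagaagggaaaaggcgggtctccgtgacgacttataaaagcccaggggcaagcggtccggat
HSPA1B: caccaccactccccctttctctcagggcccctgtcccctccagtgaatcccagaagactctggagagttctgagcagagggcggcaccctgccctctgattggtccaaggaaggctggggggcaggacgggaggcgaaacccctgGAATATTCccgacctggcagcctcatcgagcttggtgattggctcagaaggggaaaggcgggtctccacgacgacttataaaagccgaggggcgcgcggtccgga
HSPD1 and HSPE1: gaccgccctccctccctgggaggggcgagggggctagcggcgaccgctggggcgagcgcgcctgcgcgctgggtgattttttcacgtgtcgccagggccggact

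HSPB1 held 1 pair, GAAGGTTC, at 182 to 175 bases before its start. HSPA1A and HSPA1B each held 1 pair, GAATATTC, and they were the only members with the letters TATAAA, which 10.7% of all 35116 RefSeq promoter windows of this length hold. HSPA8 held 2 runs of 3 units, GAAAGTTCCAGAA at 230 to 218 bases and TTCTGGAAGGTTC at 55 to 43 bases before its start. HSP90AA1 held TTCCGGAAGGTTC (chr14:102087120-102087132) and a further pair, TTCTGGAA, before 1 of its 2 starts. HSP90AB1 held TTCTGGAAGATTC (chr6:44247778-44247790) and TTCTGGAAGCTTC (chr6:44247831-44247843) before 1 of its 3 starts. HSPD1 held TTCTGGAAAGTTCTGGAA (chr2:197500068-197500085) before 1 of its 2 starts, outside the stretch it shares with HSPE1. DNAJB1 held 2 separate pairs, GAAGGTTC and GAAGCTTC, before 1 of its 3 starts. No pair was found in the windows of HSPE1 and HSPH1, which says only that these letters are not there. For HSPE1 this depends on the window length. Its window begins at chr2:197500129, and the run counted for HSPD1, which ends at chr2:197500085, lies farther from the HSPE1 start.

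A pair was thus present in 8 of 10 members and in 8 of their 16 windows, against 11.6% of all windows, and 3 units were present in 4 members, HSPA8, HSPD1, HSP90AA1 and HSP90AB1, against 0.441% of all windows. The letters CCAAT stood in 7 member windows (32.0% of all windows) and GGGCGG in 15 (42.6%). The 250 bases of HSPA1A and HSPA1B were identical at 235 of 251 aligned positions (93.6%), with 14 mismatches and 2 gaps. Such close copies share reads, so the split of RNA between them is uncertain.

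The labels could be checked on EP400 itself. EP400 mRNA stood at 10.04 FPKM (authors' confidence limits 0.165 to 19.9) in the mock library and at 2.28 FPKM (0.162 to 4.41) in the EP400 siRNA library, 22.8% of the mock level. The median gene had a log2 ratio of EP400 siRNA over mock, computed as log2 of (FPKM + 1) in each library, of -0.20. Summed FPKM of rows of 200 nt or more differed 1.71-fold between the libraries (626424 in mock and 366796 after EP400 siRNA), and rescaling both to the same sum (TPM) shifted the median gene by 0.68. The defining mesenchymal gene VIM was high (618 and 1132 FPKM), 5 of 7 mesenchymal and bone markers reached 1 FPKM in mock, COL1A2 was near 0 and TWIST1 at 0. Blood markers (0 of 4) and endothelial markers (0 of 3) did not reach 1 FPKM, while 4 of 6 epithelial markers did, 3 keratins and CLDN4, with EPCAM at 0.680 FPKM and CDH1 at 0.0472 FPKM. The summed epithelial markers stood at 959 FPKM in mock and 443 after EP400 siRNA, and the mesenchymal ones at 1227 and 1380. The mesenchymal sum hides opposite directions. VIM and ALPL (2.31 and 7.75 FPKM) were higher after EP400 siRNA, whereas COL1A1 (376 and 60.8), SPARC (229 and 179) and RUNX2 (1.51 and 0.697) were lower. The part of these shifts in the results was not tested, and fewer cells of a type cannot be told apart from less RNA per cell.

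RNA of the small heat shock protein HSPB1 was 7.56-fold lower after EP400 siRNA, while RNA of HSPA8, HSPD1 and HSP90AA1, from the large chaperones, was 3.07 to 3.79-fold higher. The inducible HSP70 genes HSPA1A and HSPA1B were lower, and HSPE1, HSP90AB1, HSPH1 and DNAJB1 were within 2-fold on the deposited scale. On TPM HSP90AB1 (1.55), HSPH1 (1.53) and DNAJB1 (1.45) were past 2-fold higher, as was DNAJB1 relative to genes of like density (1.33) or of its chromosome (1.73). On the deposited scale 3 of 10 members were at least 2-fold higher, where 6.11% of the 11671 genes were, and 3 of 10 were at least 2-fold lower, where 22.9% of all genes were. The members' median log2 ratio was 0.72, against -0.20 for all genes. The authors' confidence limits overlapped between the libraries for all 10 members; they were apart for 0.214% of all genes. The lower limit was 0 for 9 members in mock and for 6 after EP400 siRNA, so the limits carry little information on these ratios, and the depth behind them is unknown.

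**Figure D1:**
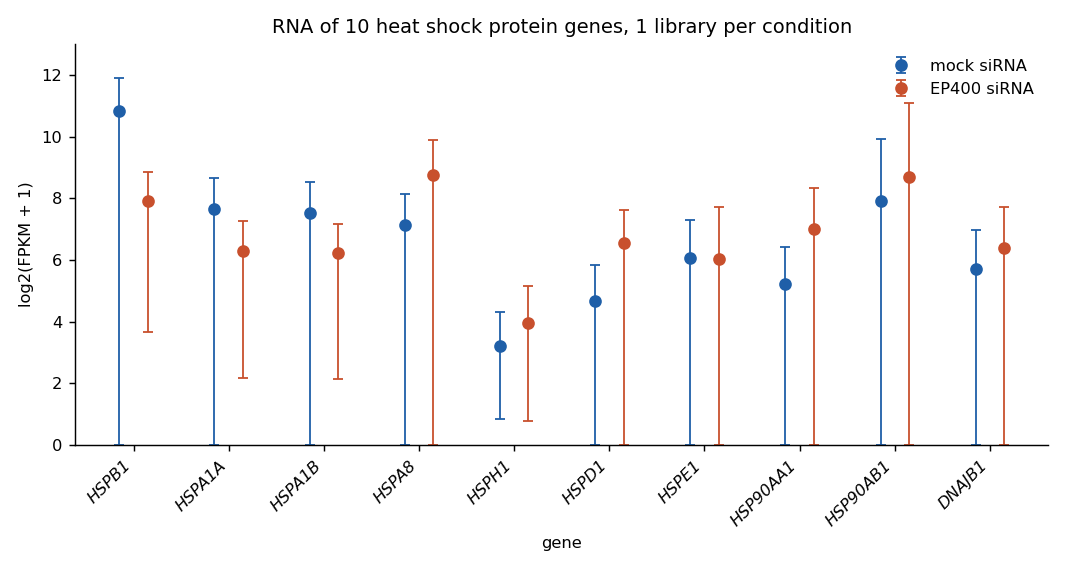
RNA level of the 10 members, as log2(FPKM + 1), in the mock library (blue) and the EP400 siRNA library (red), 1 library per condition; bars are the authors' confidence limits. HSPB1 has the highest mock level and the largest distance between conditions, and the bars overlap for every gene.

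HSPB1, the small heat shock protein also known as HSP27, lies on chromosome 7 (hg19 75931875 to 75933614, plus strand). Its level was 1799 FPKM in mock (limits 0 to 3790) and 238 FPKM after EP400 siRNA (11.6 to 464), or 13.2% of mock, with a log2 ratio of -2.91 as deposited and -2.14 on TPM. It ranked 38 among the 11671 genes in mock and 213 after EP400 siRNA. Of all genes, 33 (0.283%) had a ratio as low or lower. HSPB1 is thus both the most abundant member in mock and the member with the lowest ratio. Abundant genes as a group were lower: of the 77 genes with 1000 FPKM or more in mock, 51 were lower by 2-fold or more and 0 higher, with a median of -1.16, and HSPB1 was the lowest of them. The part of abundance in its ratio was not tested. RefSeq lists 2 pseudogenes named for HSPB1, and reads could be shared with them.

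HSPA1A and HSPA1B, the stress-inducible HSP70 genes, lie side by side on chromosome 6 (hg19 31783291 to 31785719 and 31795512 to 31798031, plus strand). HSPA1A stood at 200.4 FPKM in mock (0 to 404) and 77.8 after EP400 siRNA (3.55 to 152), 38.8% of mock and a log2 ratio of -1.35. HSPA1B stood at 182 FPKM (0 to 367) and 73.7 (3.43 to 144), 40.4% of mock and -1.30. The ratio of HSPA1A to HSPA1B was 1.10 in mock and 1.06 after EP400 siRNA, and the split between these near-identical copies is uncertain as said above. Both lie among the genes with most neighbours (54 loci within 500 kb), a group whose median log2 ratio was -0.98. Centred on genes of like density, their ratios were -0.37 and -0.31, and after rescaling to TPM -0.59 and -0.53. Below 0 under every scaling tried, both are at least 2-fold lower on the deposited scale and on median or chromosome centring, and not on the other scalings.

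HSPA8, the constitutive HSP70 of the cytosol that folds new proteins, lies on chromosome 11 (hg19 122928200 to 122933043, minus strand). It stood at 140.8 FPKM in mock (0 to 283) and 431.6 after EP400 siRNA (0 to 949), 3.07-fold higher with a log2 ratio of 1.61. Its rank was 813 in mock and 106 after EP400 siRNA. HSPA8 and its inducible relatives therefore changed order: in mock HSPA1A was 1.42 times and HSPA1B 1.30 times the HSPA8 level, and after EP400 siRNA they were 18.03% and 17.07% of it. All HSPA8 signal came from 1 of its 2 listed transcripts, with the other listed at 0 in both libraries. RefSeq holds 20 pseudogenes named for HSPA8, so reads could be shared with them. HSPH1, the HSP110 that exchanges nucleotide on HSP70 (chromosome 13, hg19 31709111 to 31736525, minus strand), was the least abundant member, at 8.27 FPKM (0.781 to 18.8) and 14.7 FPKM (0.725 to 34.3), 1.77-fold higher with a log2 ratio of 0.76. DNAJB1, the HSP40 that delivers clients to HSP70 and stimulates its ATPase (chromosome 19, hg19 14625576 to 14629371, minus strand), stood at 51.3 FPKM (0 to 124) and 82.7 (0 to 208), 1.61-fold higher with 0.68. Chromosome 19 genes had a median of -1.05, and centred on their chromosome DNAJB1 had 1.73.

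HSPD1 and HSPE1 encode HSP60 and HSP10, the barrel and the lid of the mitochondrial chaperonin. They are transcribed in opposite directions from the short stretch printed above and are held in 1 merged locus of the table on chromosome 2 (hg19 198351308 to 198418423) with MOB4. HSPD1 stood at 24.3 FPKM in mock (0 to 56.5) and 92.3 after EP400 siRNA (0 to 194), 3.79-fold higher with a log2 ratio of 1.88, the highest of the members. HSPE1 stood at 66.2 FPKM (0 to 155) and 64.96 (0 to 209), 98.2% of mock with a log2 ratio of -0.03. The RNA of the lid was thus 2.72 times that of the barrel in mock and 0.704 times after EP400 siRNA, from genes that share a promoter. RefSeq lists 22 pseudogenes named for HSPD1 and 28 for HSPE1, and both levels are uncertain to the extent that reads were shared with them. The sign of HSPE1 depends on the scaling, from -0.29 on density centring to 0.74 on TPM.

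HSP90AA1 and HSP90AB1 encode the inducible and the constitutive cytosolic HSP90, which matures kinases and receptors. HSP90AA1 (chromosome 14, hg19 102547075 to 102606086, minus strand) stood at 36.2 FPKM in mock (0 to 85.1) and 128 after EP400 siRNA (0 to 319), 3.55-fold higher with a log2 ratio of 1.80. HSP90AB1 (chromosome 6, hg19 44213903 to 44221625, plus strand) stood at 238 FPKM (0 to 965) and 409 (0 to 2184), 1.72-fold higher with 0.78. Its level was divided over 5 transcripts and has the widest limits relative to its value, which are sums of the limits of those transcripts. HSP90AB1 RNA was 6.58 times that of HSP90AA1 in mock and 3.18 times after EP400 siRNA, so the constitutive gene remained the more abundant in both libraries.

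The 10 genes together summed to 2747 FPKM in mock, of which HSPB1 made up 65.5%, and to 1613 FPKM after EP400 siRNA, of which HSPB1 made up 14.8%. The other 9 summed to 948 and 1375 FPKM. HSPB1 was 12.8 times as abundant as HSPA8 in mock, and HSPA8 was 1.81 times as abundant as HSPB1 after EP400 siRNA. Among the 7 large chaperones (HSPA8, HSPA1A, HSPA1B, HSPD1, HSP90AA1, HSP90AB1 and HSPH1), 3 were higher by 2-fold or more, 2 lower and 2 within 2-fold, with a median of 0.78. HSPB1 stood 3.69 below that median on the log2 scale, and the gap ranged from -3.76 to -3.54 over the 8 alternative settings of pseudocount, scaling and transcripts. A common scaling factor moves HSPB1 and the large chaperones together, so this gap depends little on it. It is not a gap between HSPB1 and each large chaperone alike, since HSPA1A and HSPA1B lay on the lower side too.

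Of the 10 members, 9 were in the quintile of genes with the highest mean FPKM (2334 genes), where 45.2% of genes were lower by 2-fold or more and 2.78% higher, with a median of -0.93. HSPA8, HSPD1 and HSP90AA1 lie among those 2.78%. After median centring 3 members were higher (10.8% of all genes) and 3 lower (15.6%). After rescaling to TPM 6 were higher (31.5%), HSPA8, HSPD1, HSP90AA1, HSP90AB1, HSPH1 and DNAJB1, and 1, HSPB1, lower (5.97%). Relative to genes of like density 4 were higher (9.14%) and 1 lower (10.8%), and relative to their own chromosome 4 were higher (9.96%) and 3 lower (13.5%). HSPB1 lower and HSPA8, HSPD1 and HSP90AA1 higher were the calls present under each of these 5 scalings.

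**Figure D2:**
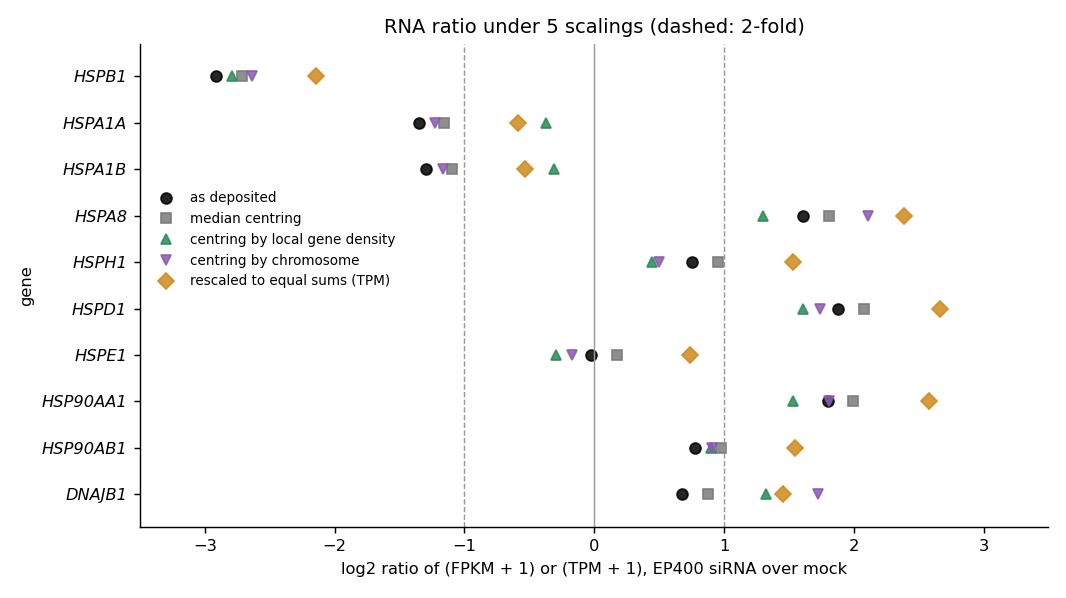
Log2 ratio of EP400 siRNA over mock for each member as deposited and under 4 other scalings, with dashed lines at 2-fold. HSPB1 lies below -2 and HSPA8, HSPD1 and HSP90AA1 above 1 with every marker, whereas HSPA1A and HSPA1B move inside the 2-fold lines on TPM and on density centring.

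Set beside the promoter search, the 4 members with 3 units had log2 ratios of 0.78 to 1.88 on the deposited scale. The 3 members with a single pair, HSPA1A, HSPA1B and HSPB1, had -2.91 to -1.30. DNAJB1, with 2 separate pairs, had 0.68, and HSPE1 and HSPH1, with none in the windows searched, had -0.03 and 0.76. On TPM the 4 members with 3 units had 1.55 to 2.66, and HSPH1 had 1.53. HSPA1A and HSPA1B were within 2-fold on TPM (-0.59 and -0.53) and on density centring (-0.37 and -0.31), whereas HSPB1 was not. As close copies that share reads, HSPA1A and HSPA1B are not 2 separate cases. The grouping by heat shock units was seen after the values were known and describes 10 genes, some with several starts and so more windows searched. It rests on exact letters, and a unit with a changed base was not counted. The pair of HSPA1A and HSPA1B is followed by ccgac and that of HSPB1 by cagat, where GAA would have made 3 units. No HSF1 binding was measured in the series.

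The genes nearest to a member in both levels show what else behaved like it in these libraries. Nearest to HSPB1 were MT1E, which encodes a metallothionein (1470 and 322 FPKM, log2 ratio -2.19), PTMS, which encodes parathymosin (1181 and 233 FPKM, -2.34), and MDK, which encodes the growth factor midkine (1080 and 236 FPKM, -2.19). Nearest to HSPA8 were the ubiquitin-like modifier ISG15 (163 and 440 FPKM, 1.42), the stress transcription factor ATF4 (196 and 403 FPKM, 1.04) and the translation factor EIF4A1 (185 and 332 FPKM, 0.84). Likeness here is the distance over 2 values, log2(FPKM + 1) in mock and after EP400 siRNA. It was 0.52 for MT1E and 0.22 for ISG15.

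The chaperone network beyond the members was read from lists of 81 genes by role, of which 77 were in the table with an estimate and 69 reached a mean of 1 FPKM. Of the 69, 8 were higher by 2-fold or more (6.11% of all genes) and 10 lower (22.9%), with a median log2 ratio of 0.32; after rescaling to TPM 36 were higher (31.5%) and 3 lower (5.97%). Small heat shock proteins other than HSPB1 lay low, with 3 of 5 lower by 2-fold or more, 0 higher and a median of -1.11. CRYAB, the small heat shock protein alpha B crystallin, stood at 39.96 FPKM in mock and 3.22 after EP400 siRNA (-3.28). HSPB2 (-1.29) and HSPB6 (-1.11) had little RNA, at 2.33 and 2.37 FPKM in mock, and HSPB8 was close to its mock level (-0.15). After rescaling to TPM the list kept 2 of its 3 lower genes.

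The cytosolic chaperonin and prefoldin list, machines that fold actin and tubulin, had 2 of 13 higher by 2-fold or more (6.11% of all genes), 0 lower and a median of 0.70. Its count was 6 higher after median centring (10.8%) and 9 higher on TPM (31.5%), with 0 lower in each. CCT6A stood at 33.2 and 86.1 FPKM (1.35) and CCT5 at 43.4 and 87.9 FPKM, just past 2-fold, and the lowest, PFDN1, had -0.27. Other HSP70 and HSP110 genes had 2 of 6 higher and 0 lower, with a median of 0.66, and 4 higher on TPM. These were HSPA4, an HSP110 relative of HSPH1 (18.1 and 45.2 FPKM, 1.27), and HSPA9, the mitochondrial HSP70 (20.5 and 47.8 FPKM, 1.18). HSPA1L, next to HSPA1A, was the lowest of that list (3.40 and 1.51 FPKM, -0.81).

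J-domain proteins, the partners of HSP70, had 4 of 15 higher (6.11% of all genes) and 1 lower (22.9%), with a median of 0.45. On TPM 9 were higher (31.5%) and 1 lower (5.97%). DNAJC2 (1.55), DNAJB11 (1.17), DNAJA2 (1.16) and DNAJA1 (1.06) were higher, and DNAJB2 was lower, from 109 to 23.5 FPKM (-2.17). HSP90 relatives and cochaperones had 0 of 13 higher and 1 lower, the myosin chaperone UNC45A (-1.19), with a median of 0.32 and PPID highest at 0.78. On TPM 8 of these 13 were higher and 0 lower, with UNC45A at -0.44. Nucleotide exchange factors and other HSP70 cofactors had 0 of 9 higher and 2 lower, BAG6 (-1.04) and the ubiquitin ligase STUB1 (-1.31), with a median of -0.22 and GRPEL1 highest at 0.88. The 2 of 9 are near the 22.9% of all genes, and on TPM 3 were higher and 0 lower, with BAG6 at -0.28 and STUB1 at -0.54. Mitochondrial proteases and their relatives had 0 of 4 higher and 2 lower, CLPP (-1.05) and HTRA2 (-1.17), with CLPX at 0.95; on median centring and on TPM 0 of them were lower.

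HSF1, the heat shock factor itself, stood at 210.4 FPKM in mock (limits 0 to 494) and 98.9 after EP400 siRNA (0 to 224), a log2 ratio of -1.08. It was the only 1 of 4 measured heat shock factors and regulators past 2-fold, a count near the 22.9% of all genes that were lower. On TPM its ratio was -0.32. HSF1 RNA says nothing of HSF1 activity, which is set largely by its trimerization and entry into the nucleus. The translation factor EEF1A1 was the highest of that list (186 and 296 FPKM, 0.67).

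**Figure D3:**
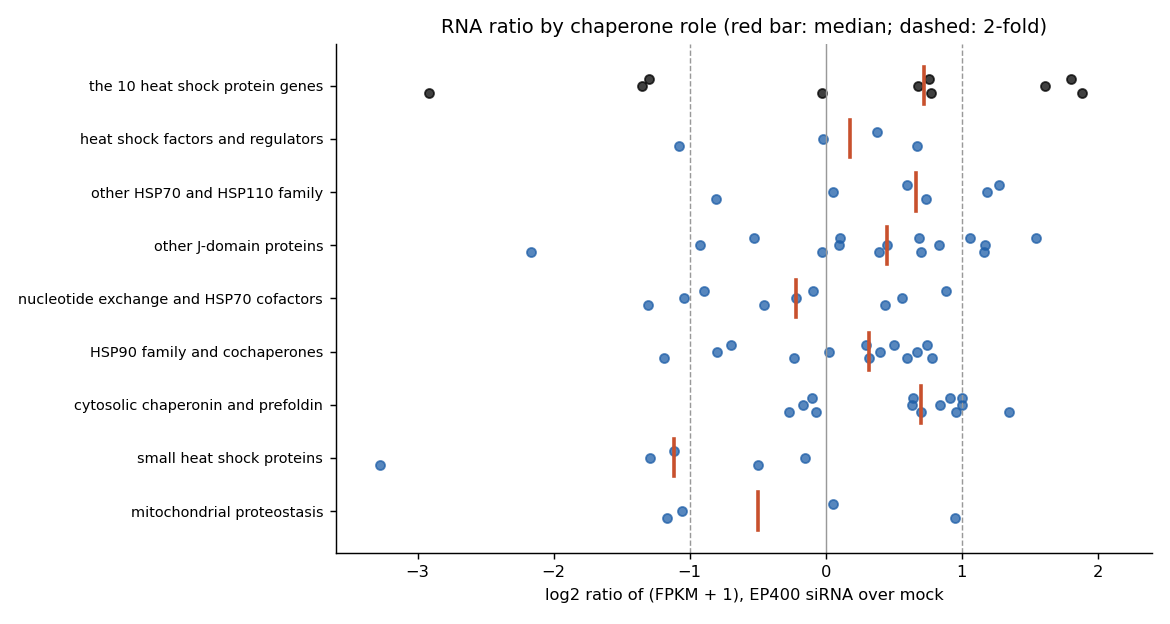
Log2 ratio of EP400 siRNA over mock for the 10 members (black) and for each measured gene of the chaperone lists (blue), by role, with the median in red and dashed lines at 2-fold. Small heat shock proteins have the lowest median (-1.11), and the chaperonin and prefoldin list has a median of 0.70, close to the members' 0.72.

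The peak lists give position and width alone, with no height. A peak is at a gene end if it lies within 2 kb of an end of the gene's locus, and in the locus window if it lies anywhere in the locus or within 2 kb of it. By that window an EP400 peak lay at 8 of 10 members (49.4% of all genes), the exceptions being HSPA1A and HSPA1B. At gene ends the count was 4 of 10, HSPA8, HSP90AB1, HSPB1 and DNAJB1 (36.0% of all genes). Among genes of the highest quintile the shares were 58.3% and 49.1%. The merged locus of HSPD1 and HSPE1 and the locus of HSP90AA1 hold Pol II peaks far inside them, which the end rule does not count, and HSP90AA1 also has Pol II at its start-side edge.

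The EP400 peaks at the members were narrow, as in the list as a whole, whose median width is its minimum of 50 bp. HSPB1 held a single 50 bp peak at 1.18 to 1.23 kb from its start-side edge, inside the gene. HSPA8 held a 250 bp peak at 0.24 to 0.49 kb and a 50 bp peak at -0.46 to -0.41 kb. HSP90AB1 held 3 peaks between 0.3 and 1.5 kb, the widest 200 bp. The widest EP400 peak at a member, 350 bp (chr2:198364451-198364800), lay within the HSPD1 and HSPE1 locus, inside a mock Pol II peak (chr2:198363601-198365500). HSP90AA1 held 1 peak of 50 bp inside its locus, also within a mock Pol II peak (chr14:102552801-102554700). DNAJB1 and HSPH1 each held 1 peak of 50 bp far from the start-side edge, at 4.22 kb and 20.12 kb.

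Pol II and MED26 marked all 10 members in both conditions by the locus window. Shares of all genes were 94.6% and 89.5% for Pol II in mock and after EP400 siRNA, and 89.5% and 87.5% for MED26. None was lost, where 5.81% of all genes with a mock Pol II peak had none after EP400 siRNA and 5.04% of those with MED26. At gene ends each of these lists had 8 members; Pol II stood at the ends of 88.0% and 82.2% of all genes and MED26 at those of 80.8% and 77.4%. The 8 were the same genes in both conditions, where 7.62% of all genes lost Pol II and 7.55% lost MED26. With presence this common among all genes, these counts say nothing particular of the members.

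**Figure D4:**
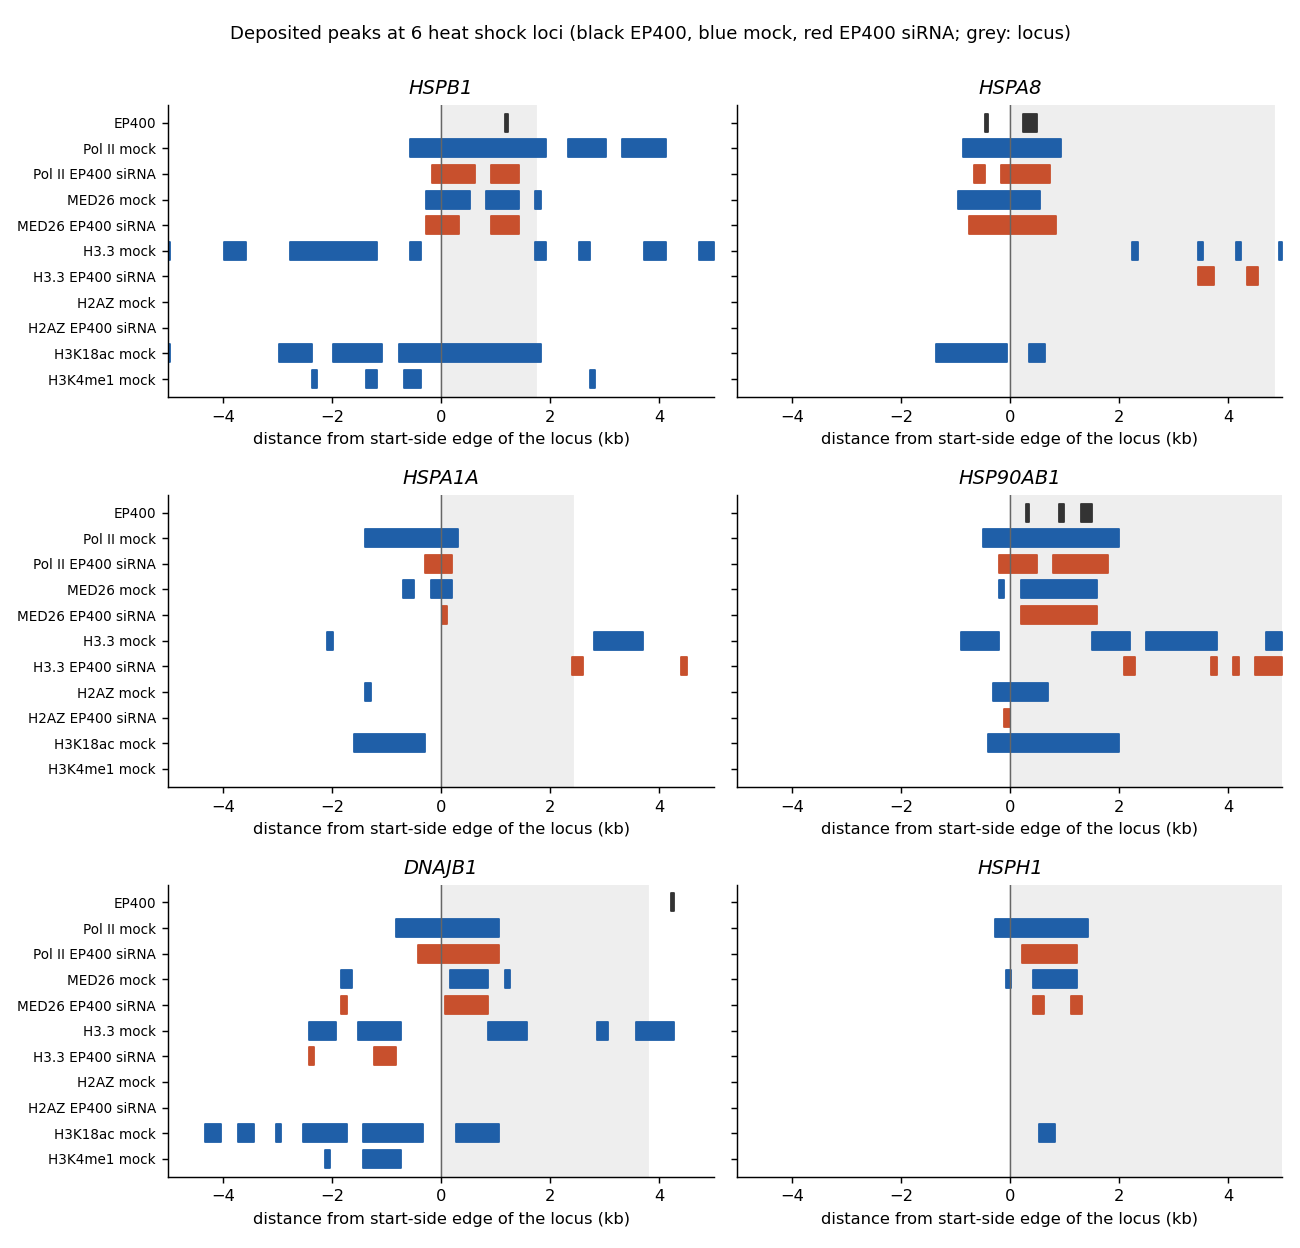
Deposited peaks within 5 kb of the start-side edge of 6 member loci, drawn along the gene (EP400 black, mock blue, EP400 siRNA red; grey marks the locus). At HSPB1 the mock Pol II peaks run past the locus end and those after EP400 siRNA do not, and the H3.3 row after EP400 siRNA is empty.

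The width covered by Pol II peaks differed between members. At HSPB1 Pol II covered 3614 bp of the locus window in mock, in 3 peaks that reached 4.12 kb from the start-side edge, past the end of the gene, and 1300 bp after EP400 siRNA (36.0%), in 2 peaks that ended at 1.43 kb. At HSPA1A the covered width was 1700 bp in mock and 500 bp after EP400 siRNA (29.4%), and at HSPA1B 1100 and 600 bp (54.5%). The mock peak at HSPA1A ran from -1.39 to 0.31 kb, past the near end of HSPA1L, which lies 0.456 kb before the start-side edge. The peak after EP400 siRNA ran from -0.29 to 0.21 kb, so much of the lost width lay on the HSPA1L side. HSPA1A and HSPB1, both with lower RNA, had the lowest shares of the members. HSPA8, with higher RNA, also had less Pol II width, 1800 and 1100 bp (61.1%). HSPD1 and HSPE1 together had 3000 and 2200 bp (73.3%), HSP90AB1 3300 and 1700 bp (51.5%), HSPH1 1700 and 1000 bp (58.8%) and DNAJB1 1900 and 1500 bp (78.9%). The window of HSP90AB1 reaches SLC35B2, 0.213 kb past its end, and 800 bp of its mock Pol II width lay past that end. At the start of HSP90AB1 the mock peak had 2500 bp, and all 1700 bp after EP400 siRNA lay there. HSP90AA1 had 2800 bp in both (100%).

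Pol II width was thus smaller after EP400 siRNA at 9 of 10 members, with a median of 59.97% of mock. Genes at large were like them: over 10402 genes with peaks in both lists the median was 66.7% (quartiles 48 and 84.2%), 86.6% of genes were below 100%, and genes of the highest quintile had a median of 58.8%. The Pol II list held 30760 peaks in mock and 20987 after EP400 siRNA, and its depth is unknown. HSPB1 and HSPA1A lay below the lower quartile of all genes, and HSP90AA1 lay above the upper one.

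MED26, a subunit that couples Mediator to elongation factors, covered more of some members and less of others. Its covered width was 1500 bp in mock and 1600 bp after EP400 siRNA at HSPA8, 1600 and 1700 bp at HSPD1 and HSPE1, and 1500 and 1800 bp at HSP90AA1. These 4 genes had more width after EP400 siRNA, and the other 6 had less. HSPA1A had 600 and 100 bp (16.7%), HSPH1 900 and 400 bp (44.4%), HSP90AB1 2200 and 1500 bp (68.2%), HSPA1B 700 and 500 bp (71.4%), HSPB1 1500 and 1100 bp (73.3%) and DNAJB1 1000 and 900 bp (90%). Of the HSP90AB1 width, 700 bp in mock and 100 bp after EP400 siRNA lay past the locus end, toward SLC35B2. Of the HSPA1A width in mock, 200 bp lay at -0.69 to -0.49 kb, past the near end of HSPA1L. All 3 members with RNA at least 2-fold higher are among the 4 with more MED26 width, and the fourth, HSPE1, shares its locus with HSPD1. At HSPA8 and at the HSPD1 and HSPE1 locus the gain was 100 bp. At HSP90AA1 the gain lay at the start-side edge, 0.103 kb from WDR20. The MED26 peak of HSP90AA1 at 51.69 kb inside the locus in mock, and at 51.89 kb after EP400 siRNA, had 1200 bp in both. A link between RNA and MED26 width was not tested. Over all genes the median was 81.8%, and 64.0% of genes were below 100%. Steps of 100 bp make a difference of 100 bp the smallest these lists can show.

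**Figure D5:**
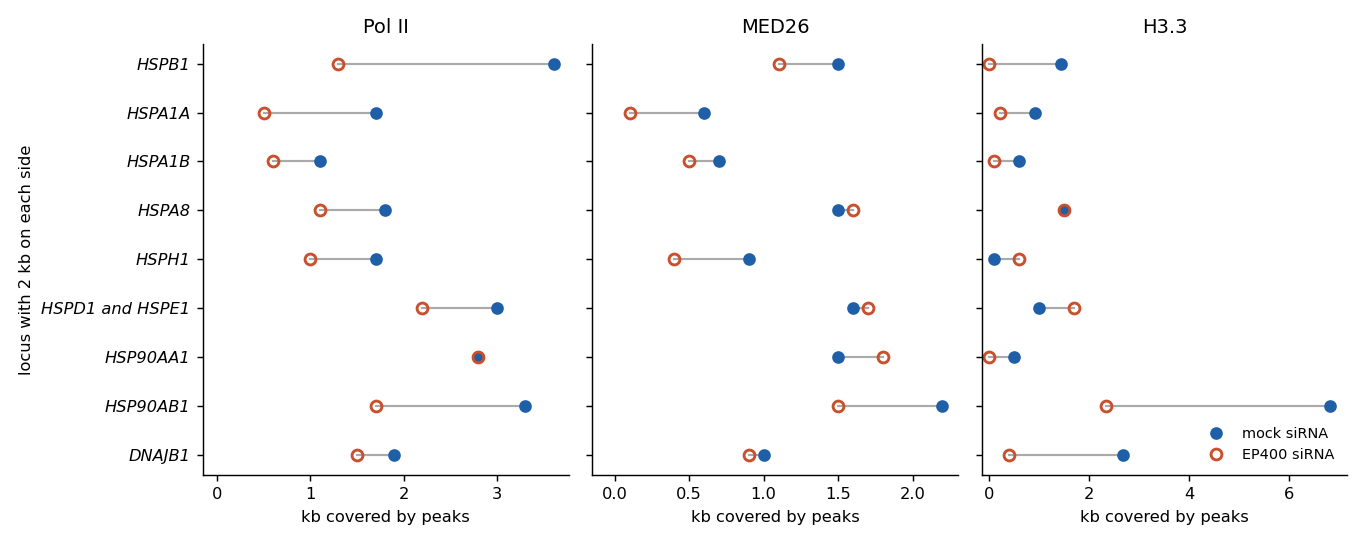
Width in kb covered by Pol II, MED26 and H3.3 peaks in each locus with 2 kb on each side, in mock (filled blue) and after EP400 siRNA (open red). HSPB1 has the largest Pol II width in mock (3614 bp) and no H3.3 width after EP400 siRNA, and HSP90AB1 has the largest H3.3 width in mock (6825 bp).

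H3.3, the replication-independent histone H3 variant, lay in the locus window of all 10 members in mock (80.9% of all genes) and of 8 after EP400 siRNA (56.7%). HSPB1 and HSP90AA1 were without it after EP400 siRNA, 2 of 10 where 37.4% of all genes with a mock peak were without one. At gene ends H3.3 lay at 9 members in mock (70.3% of all genes) and 8 after EP400 siRNA (34.9%). The same 2 genes lost it there, where 58.3% of all genes did, and HSPH1 had a peak at an end only after EP400 siRNA. RNA was lower at HSPB1 and higher at HSP90AA1. The loss at HSP90AA1 was absent with equal peak numbers in both lists and with the wider 0.5 of each list, and the loss at HSPB1 was present under each alternative tried. HSPB1 had 5 mock H3.3 peaks covering 1440 bp, on both sides of the gene and not over its middle, and 0 bp after EP400 siRNA. HSP90AA1 had 500 bp in 3 peaks and 0 bp.

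H3.3 was not lower at every member. HSPA8 had 1500 bp in mock and 1501 bp after EP400 siRNA, lying over the 3' part of the gene and beyond it in both conditions. The HSPD1 and HSPE1 locus had 1000 and 1700 bp, and HSPH1 100 and 600 bp. HSP90AB1 had 6825 and 2325 bp, DNAJB1 2671 and 400 bp, HSPA1A 910 and 219 bp, and HSPA1B 600 and 100 bp. The widest mock H3.3 peak at HSP90AB1, of 4600 bp, ran past the locus end toward SLC35B2. The median over all genes with H3.3 peaks in both lists was 37.5% of mock.

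H3.3 peaks were also followed singly. Of 37 mock H3.3 peaks at the members, 11 overlapped an H3.3 peak after EP400 siRNA (29.7%, Wilson 95% interval 17.5 to 45.8%, counting error alone), where 5.42% of mock H3.3 peaks at all gene loci did. They were 4 of 6 at HSPA8, 4 of 6 at HSP90AB1, 2 of 6 at DNAJB1 and 1 of 6 at HSPD1 and HSPE1. No mock H3.3 peak was kept at HSPB1 (0 of 5), HSP90AA1 (0 of 3), HSPA1A (0 of 2), HSPA1B (0 of 2) or HSPH1 (0 of 1), and with so few peaks a count of 0 is no difference from 5.42%. Peaks of 1 gene are not independent, so the interval does not measure how certain the share is across genes. A wide peak can also overlap another more readily. The mock H3.3 list has a median width of 200 bp, and the kept peaks at HSP90AB1 include the one of 4600 bp. The share of 5.42% was not matched for peak width or RNA level. The same share was 11 of 15 for Pol II (73.3%, against 54.3% at all loci), 15 of 21 for MED26 (71.4%, against 57.8%) and 4 of 7 for H2AZ (57.1%, against 42.5%), and the intervals of these 3, which begin at 48.0%, 50.04% and 25.05%, hold the shares at all loci.

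H2AZ, the variant of H2A found beside active starts, was absent from some members. It lay in the locus window of 6 of 10 members in mock (85.4% of all genes) and of 4 after EP400 siRNA (64.3%). HSPB1, HSPA8, HSPH1 and DNAJB1 had no H2AZ peak in either condition. HSPA1A and HSPA1B had 100 and 400 bp in mock and 0 bp after EP400 siRNA, 2 of 6 where 26.3% of all genes with a mock peak were without one. At gene ends H2AZ lay at 4 members in mock (77.2%) and 2 after EP400 siRNA (56.5%), and HSPA1A and HSPA1B were again those that lost it, where 28.7% of all genes did. The loss at HSPA1A, which rests on a single mock peak of 100 bp, was absent with gene ends of 1 kb, with the wider 0.5 of each list and with equal peak numbers. That peak lay at -1.39 to -1.29 kb, past the near end of HSPA1L at 0.456 kb before HSPA1A, so it cannot be assigned to HSPA1A alone. HSP90AB1 had 1000 and 100 bp, the HSPD1 and HSPE1 locus 600 and 500 bp, and HSP90AA1 300 and 800 bp. In the HSPD1 and HSPE1 locus the mock peak chr2:198365201-198365300, inside the Pol II peak that holds EP400, had no H2AZ over it after EP400 siRNA. The H2AZ left in that locus lay from chr2:198380301 on, at another mock Pol II peak. The H2AZ peaks of HSP90AA1 all lay at its start-side edge, 0.103 kb from WDR20.

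H3K18ac, an acetylation found at active promoters and enhancers, was measured in mock alone and lay in the locus window of all 10 members (84.3% of all genes) and at the ends of 8 (74.6%). At HSPB1 it covered the whole gene in 1 peak from -0.77 to 1.82 kb, and at HSPA8 it lay on both sides of the start in 2 peaks. H3K4me1, a mark of enhancers and promoter flanks, lay at 5 of 10 members (54.3%), HSP90AA1, HSP90AB1, HSPB1, HSPH1 and DNAJB1, and at the ends of 3 (31.0%). At HSPB1 it had 3 peaks before the start-side edge, of which the farthest, at -2.37 to -2.27 kb, was outside the locus window. A further peak lay past the gene end, at 2.73 to 2.83 kb.

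The genes beside a member show whether it moved with its surroundings. These neighbours were looked at after the members' values were known. HSPB1 has SRRM3 at 15.3 kb (22.7 and 5.58 FPKM, log2 ratio -1.85) on 1 side and YWHAG at 22.5 kb (21.0 and 36.7 FPKM, 0.77) on the other, so its nearest neighbours differ in direction. SLC35B2, 0.213 kb from HSP90AB1, stood at 114 and 52.0 FPKM (-1.12), against 0.78 for HSP90AB1. GIPC1 at 18.6 kb and TECR at 10.98 kb from DNAJB1 had -1.64 and -0.99, against 0.68 for DNAJB1. HSPA1A and HSPA1B were lower beside neighbours that were lower too, HSPA1L at -0.81 and LSM2 at -0.99. HSP90AA1 lay between WDR20 at 0.61 and DYNC1H1 at 0.85, above 0 like HSP90AA1 itself. HSPA8 had CLMP on 1 side at 1.10 and SAE1P1 on the other at -0.25. Beside HSPD1, COQ10B had 0.91 and MARS2 0.88, while HSPE1 and MOB4 in the same locus had -0.03 and 0.16. The part of chromosomal surroundings in the members' ratios was not tested.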

How the data were processed

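The members and lists were chosen with earlier results of these data known. RNA values are FPKM with confidence limits, deposited by the authors per the file headers. Bowtie 0.12.9, TopHat2 2.0.8, Cuffdiff 2.0.2 and hg19 are named per the submitters' processing notes. Not given in the sources used here were the peak caller, its threshold and control, and the RNA annotation and normalization. FPKM carry no depth, so no count model was fitted.

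Rows under 200 nt (2116 of 48669) were left out, FPKM and limits were summed per gene, and a mean FPKM of 1 was the minimum. Ratios used log2(FPKM + 1), which understates low genes, and 2-fold was the call. The deposited peak lists give positions only, in steps of 50 bp (EP400) or 100 bp, on hg19 counted from 1, and an overlap of 1 bp counted. Loci carry no strand, so strand and promoters came from RefSeq (GRCh38.p14), whose coordinates were never joined to peaks. Overlapping genes cannot be told apart.

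The named genes are EP400, the members, the highest, the lowest and every 2-fold gene of each role list, the 3 genes nearest in level to HSPB1 and HSPA8, and neighbours; pseudogenes were counted by symbol. Python 3.11.15, pandas 2.3.3, numpy 2.4.6 and Biopython 1.88 were used, and the scripts were tested on simulated data. Alternatives covered pseudocounts, filters, scalings, transcripts, gene ends, overlap and list length.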

Additional observations from a re-analysis of the deposited data

How the results depend on the processing

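No paired analysis was possible because each condition had 1 library, and the EP400 immunoprecipitations, whose numbers match those of inputs not analysed here, came as 1 list. The count of members at least 2-fold higher moved from 3 to 6 on rescaling to TPM, and the count lower from 3 to 1 on TPM and to 1 on centring by local gene density; these scalings shift the ratio of each gene by construction. Over 8 alternatives, 66 of 80 member ratios moved by at most 1.5-fold and kept their side of 2-fold, 14 did not, and 0 ratios past 2-fold changed sign. The 66 are no measure of stability, since some alternatives could hardly move a ratio. Keeping all rows changed no member ratio, and median centring shifted every gene by the same small amount. Rescaling to TPM moved the ratio of each member by more than 1.5-fold. HSPB1 minus the median of the large chaperones ranged from -3.76 to -3.54. With no filter on low values, 3.11% of all genes were higher and 11.2% lower. The members without a mock peak after EP400 siRNA, 4 over Pol II, MED26, H3.3 and H2AZ at gene ends, were 2 with equal peak numbers (H3.3 at HSPB1 and H2AZ at HSPA1B); fewer mock peaks remain by construction. H3.3 was lost at HSPB1 under each of the 6 alternatives for peaks; at HSP90AA1 it was not under equal peak numbers or with the wider 0.5 of each list. The depth of every library is unknown, and so is its part in the length of each list.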
